A study of Mus musculus with 6 samples.

Results

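The 10 type II cadherins Cdh6, Cdh7, Cdh8, Cdh9, Cdh10, Cdh11, Cdh12, Cdh18, Cdh20 and Cdh22 were examined in the cervical spinal cord of embryonic day 11.5 mice, the dorsal cord and floor plate having been left out of the tissue. They were chosen by name, as classical cadherins known from the sorting of motor neurons, and every probe set annotated to exactly 1 of these symbols was taken. That gave 11 of the 28815 probe sets of the table, 1 for each gene and 2 for Cdh18. Total RNA had been run on 6 whole-transcript arrays. The 3 carrying the label Nkx2.9 knockout are called KO-A, KO-B and KO-C after the letters of the labels, and the 3 wild-type arrays WT-A, WT-B and WT-C. The product of Nkx2-9 is a homeodomain transcription factor of ventral progenitors, and the series set out to find genes downstream of it in spinal accessory motor neurons. The labels give no strain, no description of the allele and no number of embryos per sample, so the p-values measure only the spread between these samples.

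Type II cadherins are calcium-dependent adhesion molecules of the cell surface. Their outermost domain binds the same or a closely related cadherin on the next cell, and their cytoplasmic tail binds catenins, which connect the contact to actin. In the ventral spinal cord, combinations of type II cadherins differ between motor pools, the groups of motor neurons that innervate 1 muscle, and help the cell bodies of a pool to settle together. By binding preference the members fall into 3 subgroups: Cdh6, Cdh9 and Cdh10; Cdh8 and Cdh11; and Cdh7, Cdh12, Cdh18, Cdh20 and Cdh22.

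The values were on a log2 scale and had been centred, probe set by probe set, on the median of the 6 arrays. A value of 0 is therefore the middle of that probe set's own arrays, the middle pair of arrays stands equally far above and below 0, and neither the level of a cadherin nor its signal over background can be read. For the same reason the labelled tissue could not be checked against the level of its markers. Nkx2-9 itself was not lower under the knockout label. Its values were -0.07, 0.26 and 0.11 in KO-A, KO-B and KO-C, and -0.21, 0.07 and -0.11 in WT-A, WT-B and WT-C, a difference of 0.18 (SE 0.11; limma adjusted p = 0.812). The place of its probes relative to the deleted part is not given, so every direction below rests on the labels. Xist, the X-inactivation RNA, stood at 4.56 and 4.91 in KO-B and KO-C and between -0.25 and 0.11 on the other 4, and the Y-linked Kdm5d was at -3.08 and -3.20 on the same pair of arrays. That is the pattern of female tissue in KO-B and KO-C and of male tissue on the other 4. Sex was thus uneven between the labels, with only KO-A like the wild type. Its part in the differences below cannot be fully told apart from that of the label. WT-B stood apart from the other arrays in several gene lists, described after the cadherins, and values that rest on it are given without it as well.

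8 of the 10 chosen type II cadherins were lower in the arrays labelled knockout and 2, Cdh6 and Cdh20, were higher. The median log2 difference over the 10 genes, labelled knockout minus wild type, was -0.31, against 0.01 over all probe sets. Cdh7 and Cdh9 had the largest differences, at -0.82 (SE 0.33) and -0.77 (SE 0.38), and Cdh22 had the smallest p. No member passed an adjusted p of 0.05 in limma, where 0% of all probe sets passed and 5.57% had an unadjusted p under 0.05; an unequal-variance test also called 0. Counted by probe set, 9 of the 11 had a difference below 0, against 45% of the table. At an unadjusted p under 0.05 there were 3, those of Cdh7 and Cdh22 and 1 of the probe sets of Cdh18, all lower in the arrays labelled knockout, against 2.5% of the table in that direction. None was called higher, against 3.07% of the table. The groups did not overlap in 3, those of Cdh7, Cdh8 and Cdh22, again all lower, against 4.25% of the table; none lay wholly higher, against 6.68%.

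**Figure D1:**
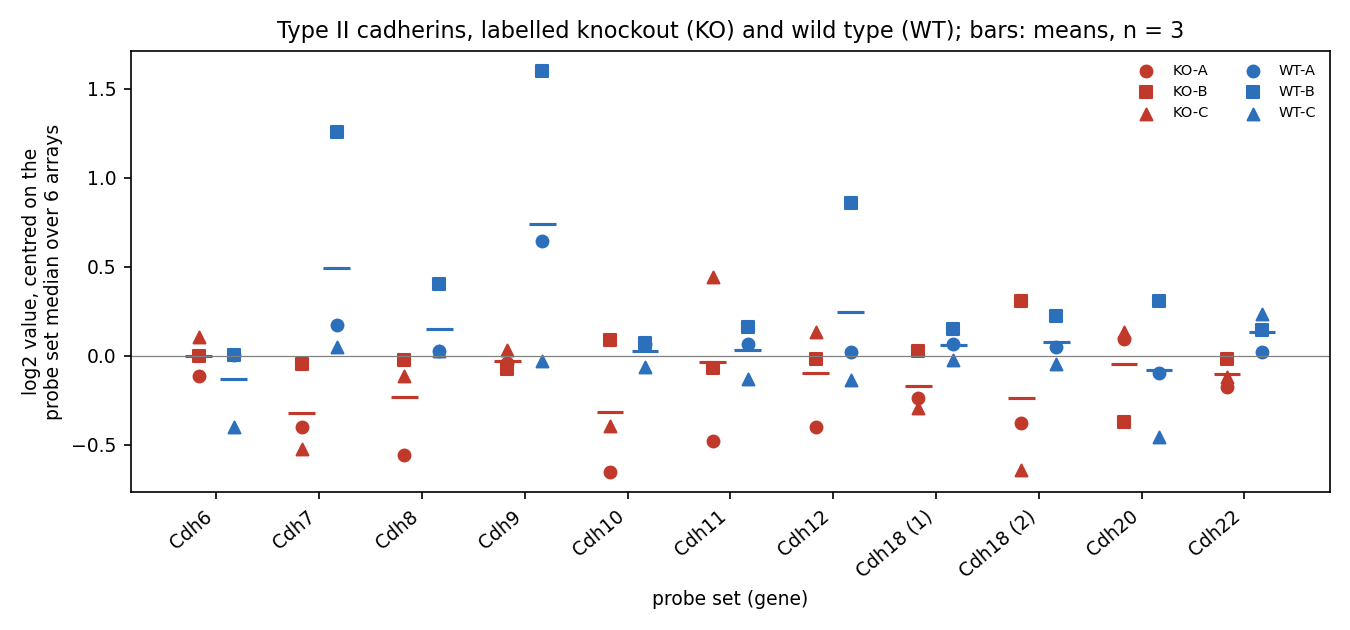
Centred log2 values (vertical axis) of the 11 type II cadherin probe sets (horizontal axis) on the 3 arrays labelled knockout (red) and the 3 wild-type arrays (blue); the shape gives the letter and the short bars the group means. WT-B stands highest for Cdh7, Cdh9 and Cdh12, at 1.26, 1.60 and 0.86, and all 3 red points of Cdh7, Cdh8 and Cdh22 lie below all 3 blue points.

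Of the subgroup of Cdh7, Cdh12, Cdh18, Cdh20 and Cdh22, Cdh7 is known from subsets of motor neurons and, in chick, from migrating neural crest. Cdh7 (probe set 10349184) stood at -0.40, -0.05 and -0.53 in KO-A, KO-B and KO-C, and at 0.18, 1.26 and 0.05 in WT-A, WT-B and WT-C. The WT-B value was far above all others, while KO-B and WT-C lay close together on either side of 0. The means were -0.32 ± 0.25 and 0.49 ± 0.66 (SD, n = 3 each). The difference of -0.82 was 1.76-fold (limma unadjusted p = 0.0438, adjusted p = 0.812; exact two-sided permutation p = 0.1, the smallest that 3 arrays against 3 can give). Without WT-B the difference was -0.44 (SE 0.15). The unadjusted p was under 0.05 in 10 of 15 settings tried; it was 0.105 without KO-A and 0.113 without KO-C.

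Cdh22 (probe set 10489629), first described in pituitary and brain, had less spread. It stood at -0.18, -0.02 and -0.12 in KO-A, KO-B and KO-C, and at 0.02, 0.14 and 0.24 in WT-A, WT-B and WT-C. The groups did not overlap, with KO-B and WT-A nearest to each other. The difference was -0.24 (SE 0.07), 1.18-fold (limma unadjusted p = 0.0142, adjusted p = 0.812; exact two-sided permutation p = 0.1). Cdh22 was the single member with an unadjusted p under 0.05 in all 15 settings tried, which include the 6 with 1 array left out. Its difference lay between -0.31 and -0.19 over these settings and its adjusted p between 0.386 and 0.996.

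Cdh18, a cadherin of the developing nervous system, had 2 probe sets, which put the arrays in a like order but differed in spread. The first (10423274) stood at -0.24, 0.03 and -0.29 in KO-A, KO-B and KO-C, and at 0.07, 0.15 and -0.03 in WT-A, WT-B and WT-C. The second (10423287) stood at -0.38, 0.31 and -0.64 and at 0.05, 0.22 and -0.05 in the same order. In both, KO-A and KO-C were the lowest and KO-B lay among or above the wild-type arrays, so that the groups overlapped. The differences were -0.23 (SE 0.10, limma unadjusted p = 0.0490) and -0.31 (SE 0.24, unadjusted p = 0.229). Without KO-B the second was -0.59 (SE 0.11) and without KO-C it was -0.11. The first had an unadjusted p under 0.05 in 6 of the 15 settings. Its p was from 0.105 to 0.139 without KO-A, KO-C, WT-A or WT-B, and its difference lay between -0.33 and -0.17 with single arrays left out.

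Cdh12, a cadherin of the brain and spinal cord, stood at -0.40, -0.02 and 0.14 in KO-A, KO-B and KO-C, and at 0.02, 0.86 and -0.14 in WT-A, WT-B and WT-C. Its difference of -0.34 (SE 0.28) rested on WT-B, without which it was -0.04. Without WT-C it was -0.53 and without KO-A -0.19. Cdh20, which in motor neurons of other vertebrates marks particular pools, stood at 0.10, -0.37 and 0.13 in KO-A, KO-B and KO-C, and at -0.10, 0.31 and -0.46 in WT-A, WT-B and WT-C. The wild-type arrays of Cdh20 reached both lower and higher than the arrays labelled knockout. Its difference was 0.03 (SE 0.22), and leaving out single arrays gave values from -0.15 to 0.23.

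Cdh8, of the subgroup with Cdh11, is a cadherin of neurons and synapses. Cdh8 (probe set 10580990) stood at -0.56, -0.03 and -0.11 in KO-A, KO-B and KO-C, and at 0.03, 0.40 and 0.03 in WT-A, WT-B and WT-C. The groups did not overlap, with KO-A lowest, WT-B highest and the other 4 between -0.11 and 0.03. The difference was -0.38 (SE 0.17), 1.30-fold (limma unadjusted p = 0.0598, adjusted p = 0.812; exact two-sided permutation p = 0.1). Without KO-A it was -0.22 (unadjusted p = 0.150) and without WT-B -0.26 (unadjusted p = 0.173). With a term in the fit for high Xist (KO-B and KO-C), it was -0.71. That value rests on 1 knockout array, KO-A, the lowest for Cdh8, with its spread taken from the other arrays.

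Cdh11, best known from mesenchyme and also present in neural tissue, stood at -0.48, -0.07 and 0.44 in KO-A, KO-B and KO-C, and at 0.07, 0.16 and -0.13 in WT-A, WT-B and WT-C. The lowest and the highest array were both labelled knockout, and the wild type lay between them. The difference was -0.07 (SE 0.22), with -0.30 without KO-C and 0.15 without KO-A. With the Xist term, which leaves KO-A as the only knockout array, it was -0.51. KO-C also had the highest median over 19 mesenchyme genes, at 0.42 against -0.07 to 0.13 on the other 5, and over 12 endothelium genes, at 0.60 against -0.10 to 0.08. The KO mean was the higher one for all 19 mesenchyme genes and 10 of the 12 endothelium genes, of which none had an unadjusted p under 0.05. Their part in the Cdh11 values was not tested. A further 3 probe sets carried Cdh11 together with other symbols and were not used.

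Cdh9, known from synapses of the hippocampus and retina and of the subgroup with Cdh6 and Cdh10, had the highest single value of any member. It stood at -0.04, -0.08 and 0.03 in KO-A, KO-B and KO-C, and at 0.64, 1.60 and -0.03 in WT-A, WT-B and WT-C. The 3 arrays labelled knockout and WT-C lay between -0.08 and 0.03, and WT-A and WT-B stood above them. The difference was -0.77 (SE 0.38), 1.70-fold (limma unadjusted p = 0.0857, adjusted p = 0.812; exact two-sided permutation p = 0.2). It was -0.34 without WT-B and -1.15 without WT-C (unadjusted p = 0.00746, adjusted p = 0.743).

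Cdh10, a cadherin of the brain, stood at -0.65, 0.09 and -0.39 in KO-A, KO-B and KO-C, and at 0.06, 0.07 and -0.06 in WT-A, WT-B and WT-C. The wild-type arrays were close together, KO-A and KO-C lay below them and KO-B above them. The difference was -0.34 (SE 0.18), with -0.55 (SE 0.10) without KO-B and -0.18 without KO-A. With the Xist term, which again leaves KO-A as the only knockout array, it was -0.68. Cdh6, an early cadherin of neural tube and kidney, stood at -0.11, -0.0019 and 0.11 in KO-A, KO-B and KO-C, and at 0.01, 0.0019 and -0.40 in WT-A, WT-B and WT-C. Apart from WT-C its values lay between -0.11 and 0.11. The difference of 0.13 (SE 0.12) was -0.0073 without WT-C.

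**Figure D2:**
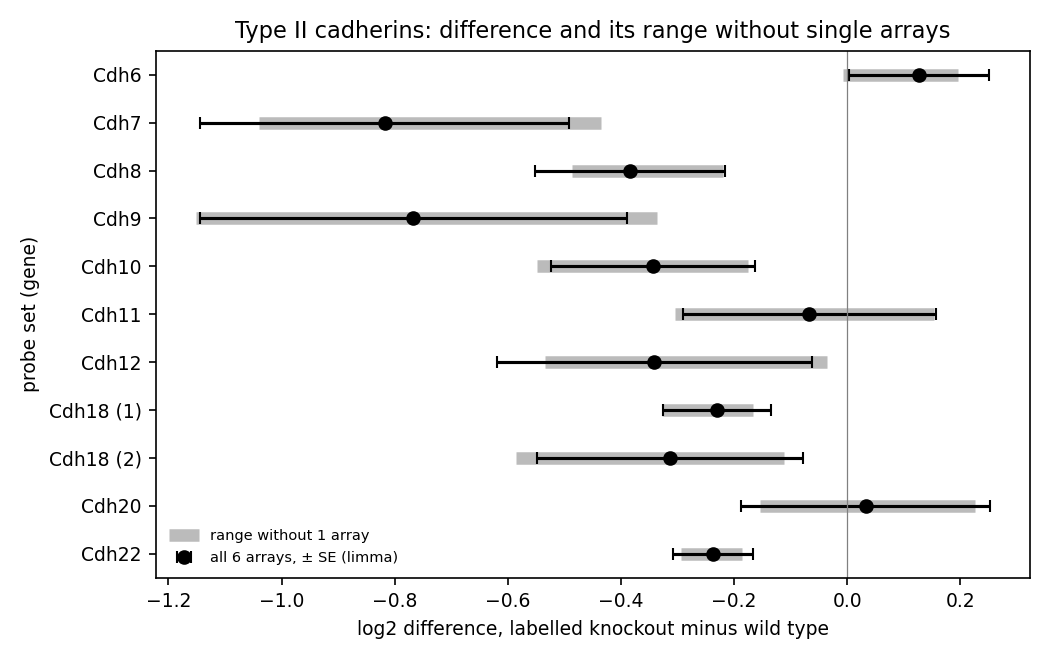
Log2 difference, labelled knockout minus wild type (horizontal axis), of each type II cadherin probe set (vertical axis), with the SE of limma's fit as a black bar and the range of the values without each array in turn as a grey bar. The grey bars of Cdh6, Cdh11 and Cdh20 cross 0 and those of Cdh7 and Cdh9 are the longest among the members lower in the arrays labelled knockout, from -1.04 to -0.44 and from -1.15 to -0.34.

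The members varied more between arrays of the same group than most of the table. The within-group SD of 8 of the 11 probe sets was above the 90th percentile of all complete probe sets, whose median SD was 0.08. Cdh9 (0.58) and Cdh7 (0.50) stood at the top, and Cdh22 (0.09) was the lowest. Much of the spread lay in the same arrays. WT-B was the highest array for 6 of the 10 genes, Cdh7, Cdh8, Cdh9, Cdh12, Cdh18 and Cdh20, and all 10 were above 0 on it, with a median of 0.25. KO-A was the lowest for 5, Cdh8, Cdh10, Cdh11, Cdh12 and Cdh22, and 9 were below 0 on it, with a median of -0.35. The cadherin medians of the other arrays lay between -0.05 and 0.04. Over all probe sets the median was -0.0003 in WT-B and -0.0043 in KO-A. How many of all probe sets stood highest in WT-B or lowest in KO-A was not counted. Without WT-B the median difference of the 10 genes was -0.22, and without KO-A it was -0.20; 8 genes were lower in each case.

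WT-B also stood apart in other gene lists. The median over 19 cell cycle genes was -0.56 there and from -0.11 to 0.26 elsewhere, and that over 15 genes of differentiated neurons was 0.15 there and from -0.18 to 0.05 elsewhere. The KO mean was above the wild-type mean for 19 of 19 cell cycle genes, none with an unadjusted p under 0.05. Of the neuronal genes 13 of 15 were lower, 2 of them with an unadjusted p under 0.05, against 2.5% of the table. Hoxc8, a Hox gene of brachial and thoracic levels named here after its values were seen, reached 3.56 in WT-B, with the other 5 arrays from -0.47 to 0.27. Of 9 genes listed for the floor plate, 5 were higher under the knockout label, Shh, Foxa1, Foxa2, Spon1 and Ntn1, and 4 lower. The lower 4 were Slit1, Lmx1b, Nkx2-2 and Sim1, and the median difference of the 9 was 0.03. An unadjusted p under 0.05 was found for 3 of the 9, all higher, against 3.07% of the table. These were Foxa1 at 0.18 (SE 0.05), Foxa2 at 0.22 (SE 0.07) and Spon1 at 0.22 (SE 0.09). The genes of this list are named here after their values were seen, and none passed after adjustment. Of 12 neural progenitor genes 6 were higher, with an unadjusted p under 0.05 for Notch1 at 0.34 (SE 0.13) and Prom1 at 0.36 (SE 0.13). Foxa1, Foxa2, Spon1, Notch1 and Prom1 were all lowest in WT-B. The part of these differences in the cadherin values was not tested. In tissue RNA, fewer cells of a type and less RNA per cell cannot be told apart. KO-A, lowest for the cadherins, had a neuronal median of -0.05, below all arrays but KO-C, and a cell cycle median of 0.18. KO-C, with the lowest neuronal median, had a cadherin median of -0.04, with members from -0.53 for Cdh7 to 0.44 for Cdh11.

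**Figure D3:**
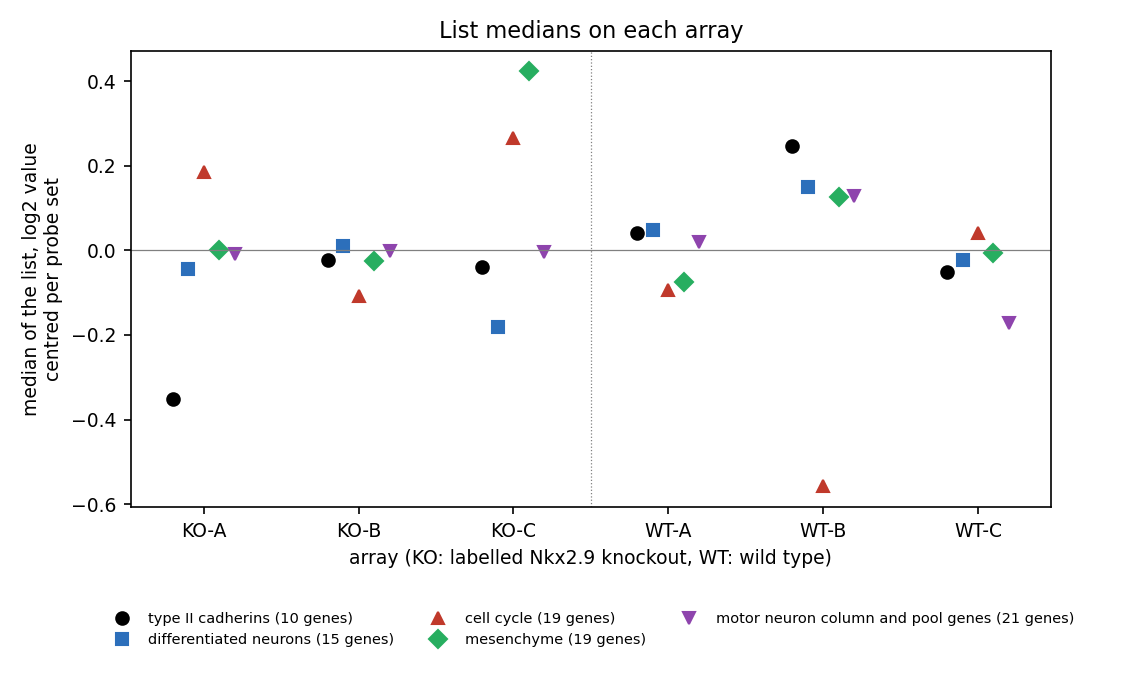
Median centred log2 value (vertical axis) of the type II cadherins and of 4 gene lists on each array (horizontal axis; arrays of a group have no order). The cadherin median is lowest on KO-A (-0.35) and highest on WT-B (0.25), where the cell cycle median is -0.56.

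Lists of other cadherins, of cadherin partners and of motor neuron genes had median differences nearer to 0. Of 10 other cadherins, a mix of type I, further type II and less typical ones, 5 were higher and 5 lower, with a median difference of 0.02. At an unadjusted p under 0.05 there was 1, Cdh26, at 0.13 (SE 0.05), against 5.57% of the table in either direction. Cdh5, Cdh19 and Cdh24, of type II or close to it, were higher, at 0.51 (SE 0.42), 0.17 (SE 0.09) and 0.06 (SE 0.09). They are named here after their values were seen. Of 15 measured catenins, nectins and other molecules that act at cadherin contacts, 7 were higher and 8 lower, with a median of -0.0036. Nectin3, an adhesion molecule of the immunoglobulin family that joins cadherin contacts through afadin, was at 0.22 (SE 0.07, limma unadjusted p = 0.0153, adjusted p = 0.812), and it was lowest in WT-B, at -0.26. Of 21 measured genes of motor neuron columns and pools 9 were higher and 12 lower, with a median of -0.04. Isl2, a LIM homeodomain factor of motor neurons, was at 0.18 (SE 0.07) and the zinc finger gene Tshz1 at -0.17 (SE 0.07), both with limma adjusted p = 0.812. The median of this list was 0.13 in WT-B and -0.17 in WT-C, and between -0.01 and 0.02 on the other arrays. In WT-B its genes ran from -0.17 for Phox2a to 1.35 for Aldh1a2, with Foxp1 at 0.80 and Slc5a7 at 0.73. Aldh1a2 had a difference of -0.75 (SE 0.62). These genes are named here after their values were seen.

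Several members are neighbours in the genome. In RefSeq's order of protein-coding genes Cdh6, Cdh9, Cdh10 and Cdh12 follow each other with 0 coding genes between them, and 1, Acot10, stands between Cdh12 and Cdh18; Cdh8 and Cdh11 are neighbours as well. The differences along the first row were 0.13, -0.77, -0.34, -0.34 and, as the mean of its 2 probe sets, -0.27 for Cdh18. Of adjacent members, Cdh10 and Cdh12 had like differences with all arrays in the fit, but not without WT-B. Without it, Cdh10 was at -0.32 and Cdh12 at -0.04. With all arrays, Cdh8 at -0.38 stood beside Cdh11 at -0.07. Cdh6 and Cdh9 lay on opposite sides of 0, though Cdh6 was at -0.0073 without WT-C. Cdh6 and Cdh9 nevertheless had the longest stretch of sequence in common among the RefSeq promoter windows, which hold 250 bases before and 50 after a start site (assembly GRCm38.p6; 11 windows of 9 of the 10 members matched). It was 15 bases long and was found, on either strand, in 2 of 32851 windows, these 2. It is shown because it is shared by members whose values differed; capitals mark the shared bases. The shared stretch begins 18 bases before the start of Cdh6 and 209 bases before the start of Cdh9. The printed lines, of 39 bases each, lie at chr15:13173667-13173705 (Cdh6, minus strand) and chr15:16728694-16728732 (Cdh9, plus strand).
Cdh6: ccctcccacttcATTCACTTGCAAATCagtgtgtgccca
Cdh9: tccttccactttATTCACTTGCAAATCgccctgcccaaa

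The 3 members whose groups did not overlap, Cdh7, Cdh8 and Cdh22, had promoter windows at 62.7%, 62.3% and 76.3% GC. The median over all windows was 52.7%. The windows of the 6 other matched members ran from 37.7% for Cdh10 to 60.3% for Cdh18. Cdh7 has 3 windows, of which the first listed is given; the others were at 60.7% and 49.7%. The GC content of Cdh22 was above that of 97.1% of all windows, against 76.9% for Cdh7, 76.2% for Cdh8 and 71.4% for Cdh18. Whether GC content goes with the differences was not tested. The last 150 bases before the start are printed to show this composition, with CG pairs in capitals, of which Cdh7 has 8 (chr1:109982750-109982899, plus strand), Cdh8 6 (chr8:99416472-99416621, minus strand) and Cdh22 16 (chr2:165234738-165234887, minus strand). Over the same length the other matched members had from 1 (Cdh10) to 7 (Cdh18), Cdh20 had as many as Cdh8 with 6, and the other windows of Cdh7 had 8 and 2.
Cdh7: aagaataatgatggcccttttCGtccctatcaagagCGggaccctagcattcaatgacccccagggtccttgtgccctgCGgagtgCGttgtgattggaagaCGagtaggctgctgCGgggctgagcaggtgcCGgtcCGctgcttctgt
Cdh8: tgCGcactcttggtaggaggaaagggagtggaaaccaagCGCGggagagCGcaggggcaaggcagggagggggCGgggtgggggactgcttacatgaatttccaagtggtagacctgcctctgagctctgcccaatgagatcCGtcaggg
Cdh22: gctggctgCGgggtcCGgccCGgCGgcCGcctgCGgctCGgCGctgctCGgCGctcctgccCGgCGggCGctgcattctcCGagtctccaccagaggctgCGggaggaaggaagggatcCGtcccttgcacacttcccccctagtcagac
The motif CACTTNA, the type of site bound by homeodomain proteins of the NK2 class, was searched for on both strands together with TAATTA and TAATTG, sites of Hox and LIM homeodomain type; N is any base, and TAATTA and TAATTG cannot both match at the same place. CACTTNA was present in windows of Cdh6, Cdh8, Cdh9 and Cdh12, 4 of the 11, against 11.5% of all windows. TAATTA was present in 1 window, of Cdh7, against 5.29% of all, and TAATTG in 2, of Cdh12 and Cdh20, against 8.00%. In Cdh6 and Cdh9 the CACTTNA match ends on the first shared base of the stretch printed above, beginning 24 and 215 bases before the start. Members with and without a CACTTNA match stood on both sides of 0: Cdh8 at -0.38 and Cdh6 at 0.13 with one, Cdh7 at -0.82 and Cdh20 at 0.03 without.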

How the data were processed

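Amplified sense-strand cDNA made from total RNA was biotin-labelled and hybridised, per the labels' protocols. The authors deposited log2 values from RMA, per the submitters' processing notes. Its version and settings and the genome build are not given in the sources used here, and base 2 was assumed because RMA works in it. In every complete probe set the median over the 6 arrays was 0 within 1e-06. WT-C had no value for 24 of the 28815 probe sets, none of them a cadherin, and these were fitted without it. Symbols came from the platform annotation, and promoter sequences from RefSeq.

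Genotype was the only term of the fit (limma 3.58.1, lmFit with eBayes; R 4.3.3) across the whole table, with Benjamini-Hochberg adjustment over all probe sets. The fit was tested on simulated data. For genes in lists the probe set with the most accessions was used. Every member is named; of each list of related genes, those at unadjusted p under 0.05 or else the 2 of lowest p. The marker lists also covered neural crest, dorsal root ganglion and dorsal cord, whose medians on single arrays lay between -0.16 and 0.09 and of whose genes 1 had an unadjusted p under 0.05 (Isl2, a motor neuron gene as well). The members, lists, motifs and tests were chosen with earlier results of these data known. Plots were made in Python 3.11.15 (matplotlib 3.10.9).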

Additional observations from a re-analysis of the deposited data

How the results depend on the processing

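The alternatives were a replicate block, array weights, quantile normalization, centring of each array on its median, a robust variance prior, an unequal-variance test, an Xist term, complete probe sets of 1 symbol, 1 probe set per gene (for the median alone), and leaving out each array; a filter on low values was not run, since the centred values hold no level. At least 8 of the 10 cadherins were lower in each fit so counted, 9 with array weights and without KO-C, and 10 without WT-C. Their median was -0.58 with the Xist term. The count of 3 cadherin probe sets at unadjusted p under 0.05 was 1 with array weights, 1 with the unequal-variance test and from 1 (without KO-A or KO-C) to 6 (without KO-B) with single arrays left out. The count past the adjusted threshold was 0 to 5 with single arrays left out. The 5 came without KO-A, where the groups differ in Xist: they were Xist, Kdm5d, Eif2s3y, Uty and 1 probe set without a symbol. Cdh20 turned to -0.023 with array weights and lay between -0.15 and 0.23 without single arrays, Cdh11 between -0.30 and 0.15 and Cdh6 between -0.0073 and 0.20; the cause was not tested. Same-letter arrays of the 2 groups correlated at 0.16, 0.22 and 0.02 in their deviations from the group means. Arrays of unlike letters correlated at -0.19 to 0.04. These values do not settle whether the letters mark pairs, and the main fit did not use the letters. With the letter as a replicate block, 4 cadherin probe sets had an unadjusted p under 0.05 (Cdh7, Cdh8, Cdh22 and 1 of Cdh18), and none passed the adjusted threshold. In that fit the SE of Cdh7 was 0.17, against 0.33 without the block. Of all probe sets, 2552 had an unadjusted p under 0.05 with the block, 2871 without KO-B, 977 without WT-B and 928 with the unequal-variance test, against 1605. The number of arrays limits the precision.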
